A study of Mus musculus with 4 samples.

Results

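The TRP channel genes Trpm5, Trpm4, Trpm2, Trpm7 and Trpc1 were examined in sorted mouse beta cells. They were taken by gene name, all 5 were found, and they stand among 31017 gene names in the deposited tables. Bulk RNA sequencing covered 2 libraries of CD63 high and 2 of CD63 low beta cells. All cells came from islets of wild-type C57BL/6J males aged 10 weeks that had been kept in culture overnight, dissociated and sorted by flow cytometry on CD63, a tetraspanin of endosomes, lysosomes and secretory vesicles. The labels describe no other gate and do not say whether the libraries of a group came from separate animals, so p-values cover only the spread between these libraries, which may be technical.

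TRP channels are cation channels whose opening carries positive charge into the cell and so moves the membrane towards the threshold of the voltage-gated calcium channels. In beta cells that current adds to the closure of ATP-sensitive potassium channels during glucose stimulation. TRPM5 and TRPM4 are opened by intracellular calcium and pass sodium and potassium but hardly any calcium, TRPM2 is opened by ADP-ribose together with calcium, TRPM7 is a channel fused to a protein kinase and carries magnesium, zinc and calcium, and TRPC1 forms channels coupled to receptors and to emptied calcium stores.

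The genes lie on 4 chromosomes, all on the minus strand in mm10. Trpm5 spans 25490 bases on chromosome 7 (143069153 to 143094642) in 27 exon blocks, and Trpm4 31149 bases on the same chromosome (45302632 to 45333780) in 25. Trpm2 spans 62842 bases on chromosome 10 (77907722 to 77970563) in 36 blocks, Trpm7 84666 bases on chromosome 2 (126791565 to 126876230) in 39, and Trpc1 45294 bases on chromosome 9 (95705082 to 95750375) in 12. Trpm5 shares 220 exon bases, 3.44% of its exon length, with Tssc4 on the opposite strand. The libraries carry no strand information, so fragments from those bases cannot be told apart. The other 4 genes share no exon base with another gene name.

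RefSeq promoter windows (GRCm38.p6, 250 bases before to 50 bases after the start) were available for 4 of the 5 genes, all but Trpm4. They are shown for Trpm5 and Trpm2, whose levels differed most between the groups, and for Trpm7 as a gene with similar levels in all libraries, each 5′ to 3′ on the minus strand with CpG dinucleotides in capitals.
Trpm5 (chr7:143094593-143094892): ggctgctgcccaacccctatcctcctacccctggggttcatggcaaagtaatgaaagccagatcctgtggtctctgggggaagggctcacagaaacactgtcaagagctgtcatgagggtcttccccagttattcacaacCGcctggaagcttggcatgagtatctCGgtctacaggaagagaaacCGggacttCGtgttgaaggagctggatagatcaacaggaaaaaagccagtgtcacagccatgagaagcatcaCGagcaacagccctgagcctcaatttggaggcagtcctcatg
Trpm2 (chr10:77969823-77970122): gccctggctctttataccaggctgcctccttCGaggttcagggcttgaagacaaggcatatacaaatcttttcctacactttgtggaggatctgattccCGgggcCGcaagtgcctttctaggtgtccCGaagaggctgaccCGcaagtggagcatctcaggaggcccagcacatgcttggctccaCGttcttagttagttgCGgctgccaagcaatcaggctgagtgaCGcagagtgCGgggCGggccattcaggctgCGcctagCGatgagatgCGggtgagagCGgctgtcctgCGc
Trpm7 (chr2:126876212-126876511): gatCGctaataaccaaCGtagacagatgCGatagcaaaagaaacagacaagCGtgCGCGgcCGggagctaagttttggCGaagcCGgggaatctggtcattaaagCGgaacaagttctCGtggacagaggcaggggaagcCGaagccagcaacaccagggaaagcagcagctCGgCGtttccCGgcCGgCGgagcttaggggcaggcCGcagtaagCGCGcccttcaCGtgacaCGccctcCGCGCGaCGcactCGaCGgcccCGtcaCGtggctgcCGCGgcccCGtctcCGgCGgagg
The Trpm5 window held 5 CpG dinucleotides, the Trpm2 window 15, the Trpm7 window 35 and that of Trpc1 22, where the median of 32851 windows was 7. The E-box letters CANNTG occurred on either strand 0 times in the Trpm5 window and 3 times each in the Trpm2 and Trpm7 windows, and 72.3% of all windows held them. The letters TGACG, the core of the cyclic AMP response element, occurred 0 times for Trpm5 and once each for Trpm2 and Trpm7, and 20.8% of all windows held them on either strand. The RefSeq start of Trpm2 lies 691 bases inside the gene as the deposited tables annotate it, while that of Trpm5 coincides with the annotated start.

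Total counts were 29249270 to 35003307 per library, so that 3 counts stood for 0.0857 to 0.103 CPM (counts per library scaled to one common total). Transcript of the sorting marker Cd63 was higher in CD63 high cells by a log2 fold change of 0.81 (edgeR adjusted p 0.0484), which checks the sort and is no finding. That call was lost in 6 of 15 alternatives, at log2 fold changes of 0.77 to 0.85. Summed over 10 beta cell identity genes including both insulins, the level was 551347 and 587175 CPM in CD63 high libraries and 622133 and 537654 CPM in CD63 low libraries. That sum came mostly from Ins1, Ins2 and Iapp, which overlapped between the groups. Of the 10 genes 3 fell, Slc2a2, Mafa and Slc30a8. Nkx6-1, Pdx1 and Ucn3 were not called but also stood lower in both CD63 high libraries than in either CD63 low library, as did 22.2% of all tested genes. G6pc2 stood higher in both CD63 high libraries and was not called. Markers of other cells were higher in CD63 high libraries. The summed level of 16 macrophage markers, 13 of which rose, was 184 and 600 CPM in CD63 high libraries, against 26.3 and 47.6 CPM in CD63 low libraries. The corresponding sums for 8 alpha cell markers, 2 of which rose, were 5257 and 5449 CPM in CD63 high libraries and 233 and 409 CPM in CD63 low libraries. For 12 acinar markers, 4 of which rose, they were 795 and 1284 CPM in CD63 high and 22.3 and 343 CPM in CD63 low libraries. Duct markers, 1 of 8 of which rose, summed to 2629 and 1323 CPM in CD63 high and 670 and 769 CPM in CD63 low libraries. All 3 gamma cell markers rose, with sums of 2403 and 3894 CPM in CD63 high and 515 and 310 CPM in CD63 low libraries. Of 5 delta cell markers 3 rose, with sums of 465 and 842 CPM in CD63 high and 67.6 and 48.7 CPM in CD63 low libraries. Endothelial, mesenchymal and Schwann cell markers summed to at most 7.98 CPM per list in any library, and none of them was called. The part of these cells in the results was not tested, and in bulk samples fewer expressing cells cannot be told apart from less transcript per cell.

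The comparison asked how the transcripts of these channels differ between beta cells with high and with low CD63. Trpm5 and Trpm2 stood lower in both CD63 high libraries than in either CD63 low library, 1.97-fold and 4.30-fold in the fitted means, without passing the test over all genes. Trpm4, Trpm7 and Trpc1 differed by at most 1.19-fold in the fitted means. At an adjusted p under 0.05 (edgeR, quasi-likelihood F test, Benjamini-Hochberg), 0 of the 5 genes were called, beside 2.79% of 13241 tested genes, of which 2.50% rose and 0.287% fell. At an unadjusted p under 0.05 there were 2 of the 5, Trpm5 and Trpm2, both lower in CD63 high cells, beside 14.9% of all tested genes in either direction and 5.96% lower. DESeq2 called Trpm5 and Trpm2 as lower, where it called 5.18% of all tested genes and 1.15% as lower, and limma-voom called 0 of the 5, beside 2.14%. The groups did not overlap for 3 of the 5 genes, Trpm5, Trpm2 and Trpm7, all lower in CD63 high cells, and for 46.0% of all tested genes, 22.2% with the CD63 high libraries lower. The median log2 fold change (CD63 high over CD63 low) of the 5 genes was -0.26, beside -0.01 for all genes tested.

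Per kilobase of exon, Trpm5 was the most abundant of the 5 channels in every library. It is the calcium-activated channel best known from taste cells, and mouse islets without it show altered fast calcium oscillations in glucose. There were 408 and 667 counts in CD63 high replicates 1 and 2, against 1095 and 1437 counts in CD63 low replicates 1 and 2. Scaled by TMM, a normalization that evens out composition between libraries, this was 13.0 and 24.1 CPM in CD63 high libraries, against 36.1 and 36.9 CPM in CD63 low libraries. The groups did not overlap, the CD63 low libraries were nearly equal, and the CD63 high libraries lay 1.85-fold apart. Trpm5 averaged 18.5 ± 7.82 CPM in CD63 high cells and 36.5 ± 0.569 CPM in CD63 low cells (SD, n = 2 each). Its log2 fold change was -0.98 (SE 0.29, 95% interval -1.61 to -0.34), with an edgeR adjusted p of 0.113. Without CD63 high replicate 1 the log2 fold change was -0.60 (edgeR adjusted p 0.531), and without CD63 high replicate 2 it was -1.49 (0.00599). Counting error alone would give an SE of 0.054, so depth was not what limited this comparison.

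Trpm4, the second calcium-activated channel, has been linked to insulin secretion in rat beta cell lines. It had 11.9 and 10.1 CPM in CD63 high libraries, against 10.4 and 8.32 CPM in CD63 low libraries, and the groups overlapped. Its log2 fold change was 0.24 (SE 0.28, 95% interval -0.38 to 0.86; edgeR adjusted p 0.777). Within a library the ratio of Trpm5 to Trpm4 does not depend on the scaling between libraries. Per kilobase of exon, Trpm5 exceeded Trpm4 by 1.85-fold and 4.03-fold in CD63 high replicates 1 and 2, against 5.88-fold and 7.50-fold in CD63 low replicates 1 and 2. The log2 ratio was lower by 1.28 in CD63 high cells (difference -1.28). The exact permutation test gave a two-sided p of 0.333, the smallest that 2 against 2 libraries allow.

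**Figure D1:**
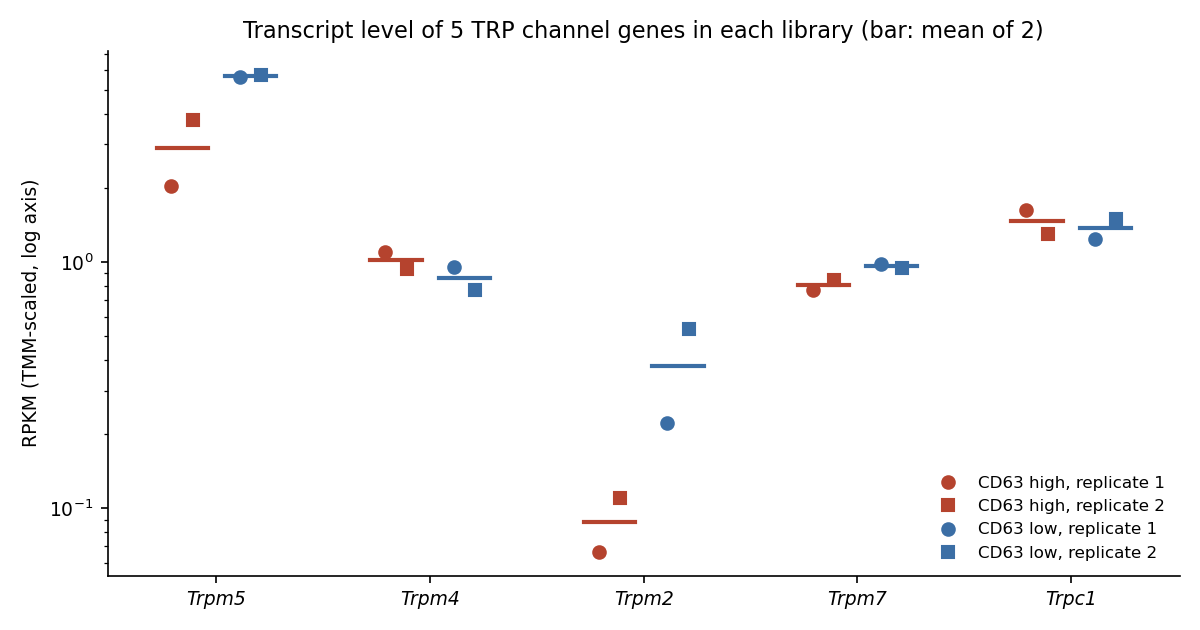
RPKM (TMM-scaled counts per kilobase of exon, scaled as CPM, log axis) of the 5 channel genes in the CD63 high libraries (red) and CD63 low libraries (blue), with circles for replicate 1, squares for replicate 2 and bars for the mean of 2. Trpm5 lies between 2.03 and 3.76 RPKM in CD63 high and between 5.64 and 5.76 RPKM in CD63 low libraries, Trpm2 is lowest in every library, and the other 3 genes lie between 0.767 and 1.63 RPKM.

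Trpm2 was the scarcest of the 5. Its channel takes part in glucose- and incretin-stimulated insulin secretion in mice and also opens under oxidative stress, and macrophages and neutrophils express it as well. CD63 high replicates 1 and 2 held 26 and 38 counts, against 84 and 260 counts in CD63 low replicates 1 and 2. Scaled to all counts of the library this was 0.854 CPM (95% Wilson interval 0.583 to 1.25) and 1.30 CPM (0.947 to 1.78) in CD63 high libraries, and 2.55 CPM (2.06 to 3.16) and 7.43 CPM (6.58 to 8.39) in CD63 low libraries. The intervals, which cover counting error only, did not overlap between the groups, and the CD63 low libraries differed from each other by 2.41-fold after TMM scaling. Averages were 1.10 ± 0.384 CPM in CD63 high cells and 4.72 ± 2.76 CPM in CD63 low cells (SD, n = 2 each). The log2 fold change was -2.10 (SE 0.56, 95% interval -3.34 to -0.87) and the edgeR adjusted p 0.0772. Only 0.378% of tested genes had a more negative fold change, and for Trpm5 the share was 3.47%. Without CD63 low replicate 2 the log2 fold change of Trpm2 was -1.31 (edgeR adjusted p 0.533), and without CD63 low replicate 1 it was -2.60 (0.00279). The macrophage markers summed above were higher, and Trpm2 lower, in the CD63 high libraries, and the part of immune cells in the Trpm2 level was not tested. Of 7 neutrophil markers, none reached the filter on low counts, and their sum was 0.657 and 0.650 CPM in CD63 high and 0 and 0.0286 CPM in CD63 low libraries, with Ly6g, Retnlg and Cxcr2 at 0 counts throughout.

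Trpm7, a ubiquitous channel kinase needed for cellular magnesium balance, had 8.68 and 9.57 CPM in CD63 high libraries, against 11.1 and 10.7 CPM in CD63 low libraries. The groups did not overlap, but the difference was small (log2 fold change -0.26, SE 0.27, 95% interval -0.85 to 0.34; edgeR adjusted p 0.743). Relative to Trpm7, Trpm5 stood at 2.65 and 4.45 times per kilobase in CD63 high libraries, against 5.75 and 6.11 times in CD63 low libraries. The ratio of Trpm2 to Trpm7 was 0.0868 and 0.130 in CD63 high libraries, against 0.226 and 0.568 in CD63 low libraries. For each of these ratios the exact permutation test gave the two-sided p of 0.333, again the smallest possible.

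Trpc1, a channel subunit of receptor- and store-operated entry, did not separate the groups. It had 13.1 and 10.4 CPM in CD63 high libraries, against 9.95 and 12 CPM in CD63 low libraries, with a log2 fold change of 0.10 (SE 0.27, 95% interval -0.51 to 0.70; edgeR adjusted p 0.924). Its ratio to Trpm7 per kilobase was 2.13 and 1.53 in CD63 high libraries and 1.26 and 1.59 in CD63 low libraries, with overlap (exact permutation test, two-sided p 0.667).

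Ordered by length-scaled level, Trpm5 came first with 2.90 ± 1.22 RPKM in CD63 high and 5.70 ± 0.0889 RPKM in CD63 low cells (SD, n = 2 each). Trpc1 followed with 1.46 ± 0.239 RPKM in CD63 high and 1.37 ± 0.184 RPKM in CD63 low cells. In CD63 high cells the order went on with Trpm4 (1.02 ± 0.117 RPKM), Trpm7 (0.806 ± 0.0556 RPKM) and Trpm2 (0.0883 ± 0.0308 RPKM), and no 2 neighbours in it overlapped between libraries. In CD63 low cells Trpm7 (0.962 ± 0.0266 RPKM) and Trpm4 (0.863 ± 0.135 RPKM) changed places and overlapped, and Trpm2 was last at 0.379 ± 0.222 RPKM. Trpm5 made up 36.3% and 54.2% of the summed RPKM of the 5 channels in CD63 high libraries, against 62.4% and 60.6% in CD63 low libraries. That sum was 5.60 and 6.95 RPKM in CD63 high libraries, against 9.04 and 9.51 RPKM in CD63 low libraries. Averaged over the 4 libraries, 63.5% of tested genes had a lower RPKM than Trpm5, 39.3% a lower one than Trpc1 and 10.9% a lower one than Trpm2.

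Among the other TRP genes, 23 names were in the tables, 8 had no count in any library, and 8 passed the filter on low counts. edgeR called 0 of these 8, with 3 at an unadjusted p under 0.05 (Trpm1, Trpv2 and Trpc4), beside 2.79% and 14.9% of all tested genes. DESeq2 called Trpm1, where it called 5.18% of all tested genes, and limma-voom called 0, beside 2.14%. The median log2 fold change of the 8 was -0.07. Trpm1, known as the channel of retinal bipolar cells, had 5.01 and 4.44 CPM in CD63 high libraries, against 1.32 and 1.75 CPM in CD63 low libraries (fitted log2 fold change 1.62, SE 0.44, edgeR adjusted p 0.0840). Trpv2, a channel also found in macrophages, had 0.670 and 2.42 CPM in CD63 high libraries, against 0.198 and 0.385 CPM in CD63 low libraries (fitted log2 fold change 2.37, SE 0.89, edgeR adjusted p 0.225), the higher CD63 high value being in the library with the larger macrophage sum, whose part was not tested. Without that library the log2 fold change of Trpv2 was 1.18 (edgeR adjusted p 0.935), and without CD63 high replicate 1 it was 3.02 (0.0822). Trpc4, a receptor-operated relative of Trpc1, had 0.447 and 0.722 CPM in CD63 high libraries, against 2.57 and 2.16 CPM in CD63 low libraries (fitted log2 fold change -2.01, SE 0.64, edgeR adjusted p 0.142).

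The lysosomal channel gene Mcoln1 was the other abundant family member, at 5.40 and 5.64 RPKM in CD63 high and 4.65 and 5.74 RPKM in CD63 low libraries. Its log2 fold change of 0.09 was small (SE 0.21, edgeR adjusted p 0.909). The polycystin channel gene Pkd2 had 14.96 and 12.6 CPM in CD63 high libraries, against 11.4 and 11.9 CPM in CD63 low libraries (fitted log2 fold change 0.24, SE 0.26, edgeR adjusted p 0.744). Trpm1, Trpv2 and Pkd2 were higher in both CD63 high libraries than in either CD63 low library, as were 23.8% of all tested genes. Mcoln3, Trpm3 and Pkd2l2 overlapped between the groups, with log2 fold changes of -0.23, -0.26 and -0.45. Trpa1, the gene of an irritant-sensing channel, and Trpv6, that of an epithelial calcium uptake channel, had 23 and 6 counts in CD63 low replicate 2 and 0 counts in the other 3 libraries, and Trpm6 had 6 counts in CD63 high replicate 1 alone.

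**Figure D2:**
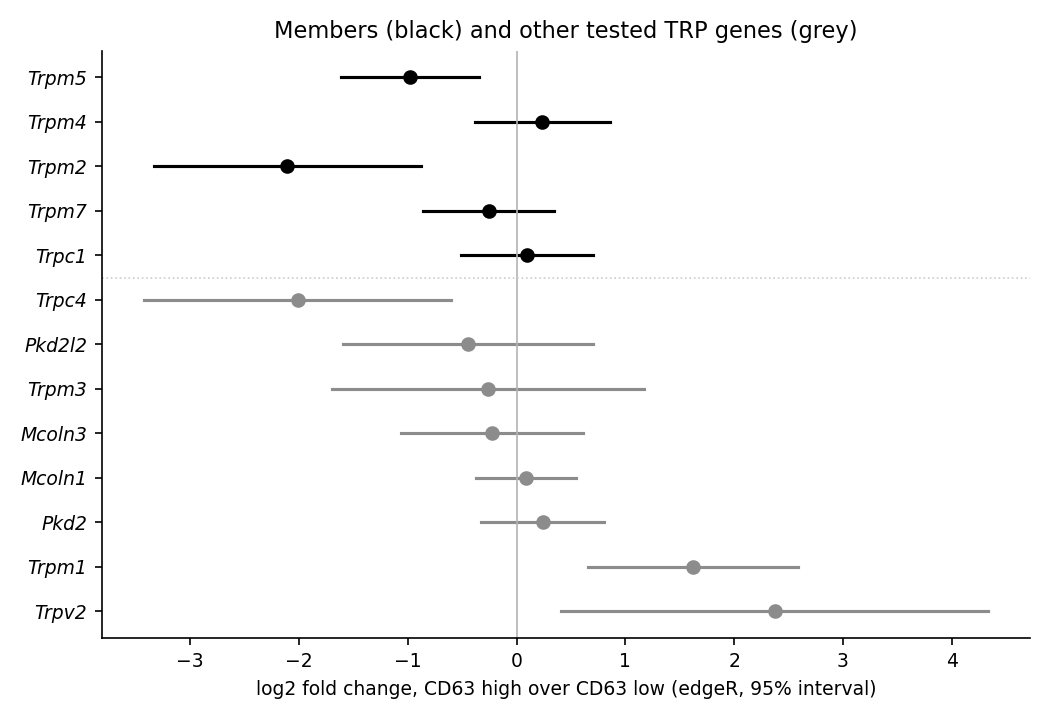
Log2 fold change, CD63 high over CD63 low, with 95% interval from edgeR, for the 5 channel genes (black) and the 8 other TRP genes that passed the filter (grey). The intervals of Trpm5, Trpm2 and Trpc4 lie below 0 and those of Trpm1 and Trpv2 above it, while none of the 13 genes passed after adjustment over all genes.

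Genes that act on these channels were taken as 8 lists with 104 tested members. Of these, edgeR called 1, Glp1r, or 0.962%, beside 2.79% of all tested genes. At an unadjusted p under 0.05 it counted 18 of the 104, or 17.3%, against 14.9% of all tested genes. In the list of receptors and kinases upstream, 1 of 14 tested genes fell, beside 0.287% of all tested genes, and 0 rose, beside 2.50%. The median log2 fold change of the list was -0.41. At an unadjusted p under 0.05 there were 5 of the 14. DESeq2 called 3 as lower (Gcgr, Gipr and Glp1r), where it called 1.15% of all tested genes as lower, and limma-voom called 1, beside 2.14%. Glp1r, the receptor of glucagon-like peptide 1, whose signal opens TRPM2, TRPM4 and TRPM5 in beta cells, had 43.3 and 34.3 CPM in CD63 high libraries, against 83.8 and 116 CPM in CD63 low libraries (fitted log2 fold change -1.36, SE 0.23, edgeR adjusted p 0.0108). That call ended with library size as the only scaling (edgeR adjusted p 0.104) and held in the other 14 alternatives. Gipr, the receptor of the other incretin, had 24.5 and 26.4 CPM in CD63 high libraries, against 43.1 and 48.7 CPM in CD63 low libraries, and missed the threshold in edgeR (log2 fold change -0.85, edgeR adjusted p 0.0592) while passing it in DESeq2 (adjusted p 0.00957).

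Phospholipase C enzymes and phosphoinositide kinases set the level of PIP2, a membrane lipid that keeps TRPM4 and TRPM5 responsive to calcium. The list taken here is wider and also holds IP3 receptor genes and the phosphatase genes Inpp5e and Synj1. Its counts therefore do not describe those enzymes alone. None of its 16 tested genes was called, and the median log2 fold change was -0.33. Log2 fold changes were below 0 for 14 of the 16, where 51.4% of all tested genes had such values. Pip5k1c, a kinase that makes PIP2, came closest with 15.98 and 16.3 CPM in CD63 high libraries, against 28.9 and 32.8 CPM in CD63 low libraries (fitted log2 fold change -0.94, SE 0.22, edgeR adjusted p 0.0539), and DESeq2 called it (adjusted p 0.00869). Pi4kb, which makes a precursor of PIP2, had a log2 fold change of -0.85 (SE 0.32, edgeR adjusted p 0.222). Calmodulin, the calcium sensor bound by TRPM2, TRPM4 and TRPC channels, and its kinases had 0 of 11 tested genes called, 4 below 0 and 7 above 0, and a median of 0.39. Camk1 had 28.3 and 26.3 CPM in CD63 high libraries, against 11.5 and 17.7 CPM in CD63 low libraries (fitted log2 fold change 0.90, SE 0.26, edgeR adjusted p 0.108; DESeq2 called it), and Camk2d a log2 fold change of 0.75 (SE 0.31).

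In taste cells TRPM5 works downstream of sweet and bitter receptors, gustducin and phospholipase C beta 2. Of 12 such partner genes 5 passed the filter, and edgeR, DESeq2 and limma-voom each called 0, with 0 at an unadjusted p under 0.05. The receptor genes were near the detection limit: Tas1r1 had 0.957 and 0.650 CPM in CD63 high libraries, against 0.560 and 0.308 CPM in CD63 low libraries. Ric8b, a G protein chaperone, had a log2 fold change of 0.15 (SE 0.23). Tuft cells, chemosensory epithelial cells that express Trpm5, were looked for with 14 other markers. Their defining genes Pou2f3, Gfi1b, Il25 and Siglecf had 0 counts in all 4 libraries, and the list summed to 31.0 and 38.4 CPM in CD63 high and 23.2 and 18.9 CPM in CD63 low libraries, the opposite order to Trpm5.

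NAD-consuming enzymes supply the ADP-ribose that opens TRPM2. The list taken here is wider and also holds genes of enzymes that make NAD or break down ADP-ribose, so its counts do not describe that supply alone. edgeR called 0 of 17 tested genes of that list, with 3 at an unadjusted p under 0.05, beside 14.9% of all tested genes. DESeq2 called Cd38, where it called 5.18% of all tested genes, and limma-voom called 0. The median log2 fold change was 0.05. Cd38, the ectoenzyme that makes cyclic ADP-ribose and ADP-ribose, had 1.37 and 3.86 CPM in CD63 high libraries, against 0 and 0.436 CPM in CD63 low libraries (fitted log2 fold change 3.49, SE 1.09, edgeR adjusted p 0.137). Without 1 library the fitted value of Cd38 lay between 2.57 and 4.05 while CD63 low replicate 2 was kept, and the call was made without CD63 high replicate 1 (edgeR adjusted p 0.000286). It was also made without CD63 low replicate 2 (edgeR adjusted p 0.000843), where the remaining CD63 low library had 0 counts. Its relative Bst1 had 33 counts over the CD63 high libraries and 0 over the CD63 low libraries, at least 12.9-fold higher with 3 counts over the CD63 low group as the floor (edgeR adjusted p 0.0725). Both enzymes are also made by immune cells, whose markers were higher in the same libraries, and their part was not tested. Cd38 and Bst1 thus stood higher in CD63 high cells, where Trpm2 stood lower.

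Around Trpc1, 0 of 9 store-operated entry genes were called by edgeR, DESeq2 or limma-voom, with 0 at an unadjusted p under 0.05 and a median log2 fold change of 0.06. The store calcium sensors Stim1 and Stim2 had log2 fold changes of -0.47 (SE 0.23) and -0.48 (SE 0.24). Around Trpm7, 0 of 19 magnesium transport genes were called by any of the 3 tools, and the median was -0.07. At an unadjusted p under 0.05 there were 2 (Slc41a1 and Nipal1), beside 14.9% of all tested genes. Slc41a1, a magnesium exporter, had 8.58 and 7.91 CPM in CD63 high libraries, against 10.3 and 16.9 CPM in CD63 low libraries, and Nipal1 53.9 and 65.7 CPM in CD63 high libraries, against 92.3 and 75.1 CPM in CD63 low libraries. Of 13 other inward current genes 0 were called by the 3 tools. An unadjusted p under 0.05 was reached by 3, of which 2 were higher and 1 lower in CD63 high cells, beside 14.9% of all tested genes. Log2 fold changes were below 0 for 7 and above 0 for 6 of the 13, with a median of -0.30. The sodium leak channel gene Nalcn had 4.53 and 5.38 CPM in CD63 high libraries, against 11.2 and 9.21 CPM in CD63 low libraries (fitted log2 fold change -1.04, SE 0.31, edgeR adjusted p 0.118). The voltage-gated sodium channel gene Scn8a had 12.4 and 8.41 CPM in CD63 high libraries, against 6.33 and 5.77 CPM in CD63 low libraries (fitted log2 fold change 0.78, SE 0.31, edgeR adjusted p 0.269).

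**Figure D3:**
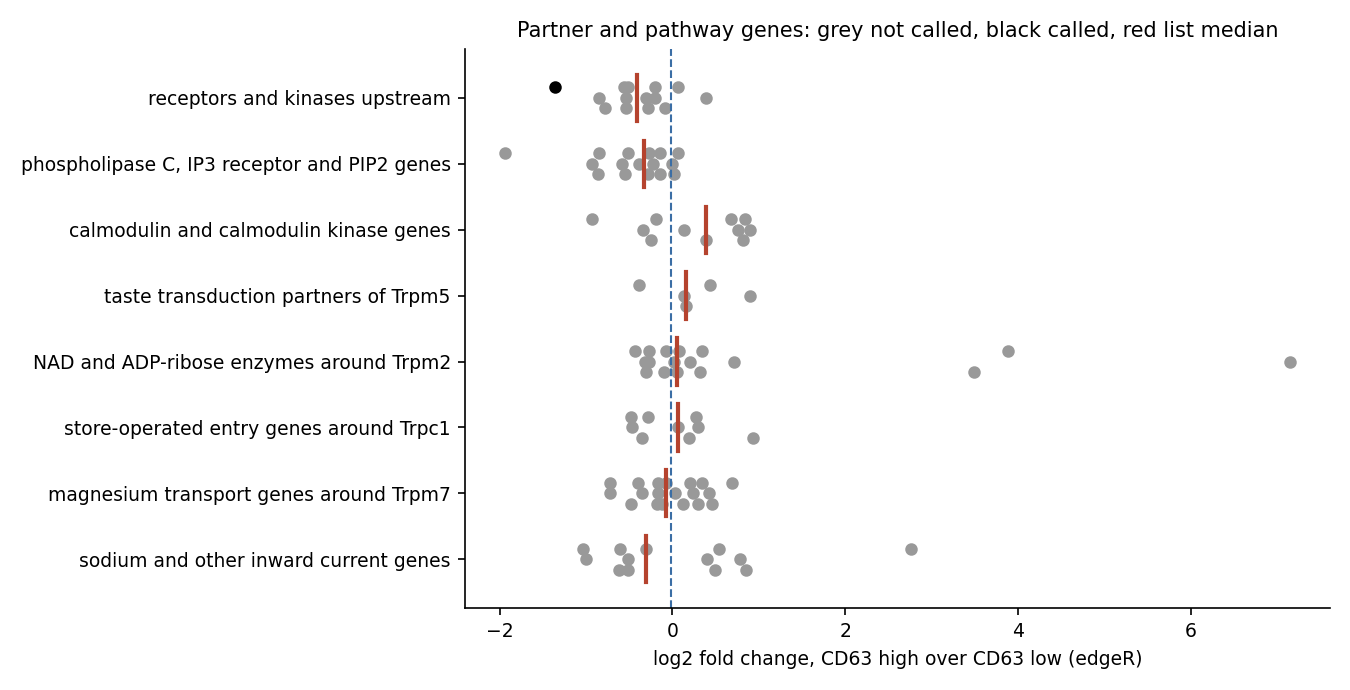
Log2 fold change, CD63 high over CD63 low (edgeR), of each tested gene in the 8 partner and pathway lists, with grey points for genes not called, a black point for the 1 called gene, Glp1r, red bars for list medians and a dashed line for the median of all genes tested (-0.01). The medians run from -0.41 for upstream receptors and kinases to 0.39 for calmodulin genes, and the point farthest right, Bst1, is a fitted value against 0 counts and no bound.

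The genes whose levels over the 4 libraries ran most like each channel were found by the Euclidean distance between centred log2 CPM values, among genes within 1 log2 unit of its mean level. With 4 libraries this describes these samples only. Closest to Trpm5 among 4084 genes were the collagen gene Col4a1 (distance 0.138), Th, which encodes tyrosine hydroxylase (0.138), and the adenylate kinase gene Ak1 (0.150), where the median distance was 1.23. Th had 23.4 and 41.8 CPM in CD63 high libraries, against 68.6 and 72.2 CPM in CD63 low libraries. Closest to Trpm2 among 1939 genes were Urb2 (0.311), Gpam, an enzyme of glycerolipid synthesis (0.545), and Lancl3 (0.682), with a median of 2.32. The nearest genes were Vps51, Tmem62 and Tmem170b for Trpm4 (0.0563 to 0.0811), Pard6a, Helz and Prcc for Trpm7 (0.0425 to 0.0534), and Zfp446, Lmo7 and Suz12 for Trpc1 (0.0303 to 0.0678).

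Tssc4, which overlaps the end of Trpm5 on the other strand, had 196 and 193 CPM in CD63 high libraries, against 213 and 185 CPM in CD63 low libraries (fitted log2 fold change -0.03, SE 0.19), with overlap between the groups. On the other side of Trpm5, Kcnq1ot1 at a distance of 108815 bases had a log2 fold change of 0.26 (SE 0.36). Next to Trpm2, 1810043G02Rik at 7960 bases had 18.6 and 21.1 CPM in CD63 high libraries, against 34.8 and 30.6 CPM in CD63 low libraries (fitted log2 fold change -0.72, SE 0.22, edgeR adjusted p 0.132).

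Trpm5 and Trpm2 kept a lower level in CD63 high cells in all 15 alternative analyses that were run on them. Whether they were called depended on the library left out, the tool, the filter on low counts and the use of a replicate block. The log2 fold changes ranged from -1.49 to -0.60 for Trpm5 and from -2.60 to -1.31 for Trpm2, and each passed an adjusted p of 0.05 in 5 of the 15. Adjusted p-values (edgeR, DESeq2 or limma-voom) ran from 0.00424 to 0.531 for Trpm5 and from 0.000956 to 0.533 for Trpm2. Removing the marker genes of other cell types from the counts gave -0.97 for Trpm5 (edgeR adjusted p 0.104) and -2.10 for Trpm2 (0.0716). This took out only the listed marker genes and left all other transcripts of those cells in the counts. It could therefore not show the part of those cells, which was not tested.

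**Figure D4:**
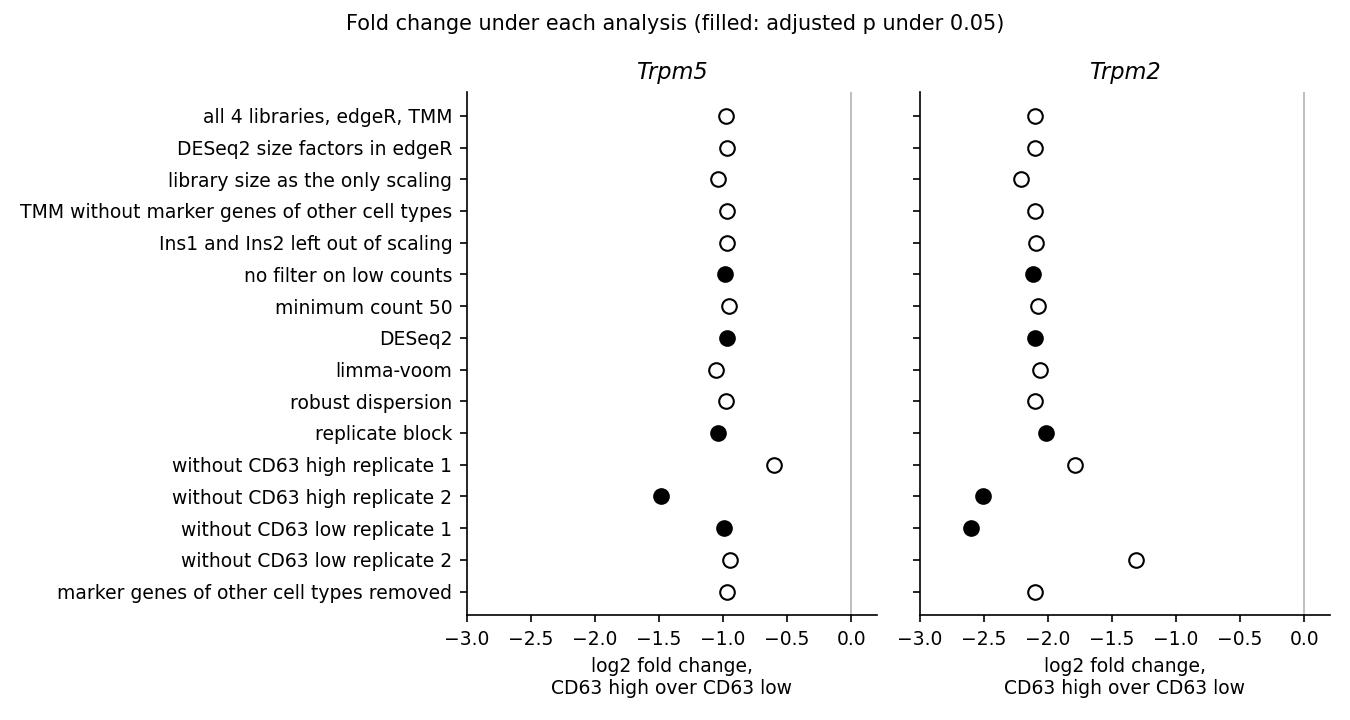
Log2 fold change of Trpm5 (left) and Trpm2 (right), CD63 high over CD63 low, in the main analysis (top) and in 15 alternatives, with filled points where the adjusted p was under 0.05. All points lie below 0, and the widest moves come from leaving out a CD63 high library for Trpm5 and a CD63 low library for Trpm2.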

How the data were processed

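The tables deposited for each library hold raw counts, which per the file headers the authors obtained by running featureCounts 1.6.2 on merged alignments. Fragments of read pairs were grouped by gene name with a Cell Ranger mm10 annotation, and no option for strand or multiple alignments was set. STAR 2.6.0c, FastQC, Cell Ranger and mm10 are named per the submitters' processing notes, and whether reads were trimmed is not given in the sources used. The low-input amplification described per the labels' protocols has no molecular identifiers, so intervals and floors cover counting error only. The exon length used for RPKM is the other column taken from the deposited tables.

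From these counts, edgeR 4.0.16 in R 4.3.3 fitted CD63 high over CD63 low with no covariate (glmQLFit, glmQLFTest; TMM) for the 13241 genes that filterByExpr kept at a minimum count of 10 and a total of 15. Adjusted p-values are Benjamini-Hochberg over all tested genes, a call is one under 0.05, and each standard error divides the log2 fold change by √F. CPM and RPKM are TMM-scaled, except sums over marker lists and Wilson intervals, which use total counts. As a check of the code, the fit was also run on simulated counts with known fold changes, and the outcome is not reported here. Counts within a group differed by far more than sampling noise (chi-square per degree of freedom 39.8 for CD63 high and 76.5 for CD63 low). Alternatives were DESeq2 1.42.0, limma-voom (limma 3.58.1), other scalings and filters, a robust dispersion, a replicate block and leaving out each library. The nearest-pattern search added 0.1 CPM before taking log2. Members and lists were chosen with earlier results of these data known. Named genes were the 5 members, other TRP genes that passed the filter, called list genes, the 2 list genes with the smallest p in each list, and the 3 nearest patterns per member. The TRP genes below the filter, neighbouring genes, single beta cell identity genes and Th were named after their values were seen. Results for some listed genes are not reported here.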

Additional observations from a re-analysis of the deposited data

How the results depend on the processing

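Trpm4 and Trpm7 kept their direction and were called in none of the 15 alternatives, with log2 fold changes of 0.10 to 0.40 and -0.33 to -0.19. Trpc1, which was not called anywhere, turned to -0.082 without CD63 high replicate 1 and -0.038 without CD63 low replicate 1, in a range up to 0.26 over the libraries left out. Trpm5 and Trpm2 were called without a filter on low counts (-0.98 and -2.12), by DESeq2 (-0.97 and -2.10; adjusted p 0.0340 and 0.0209) and with a replicate block by the numbers in the sample titles (-1.04 and -2.02; edgeR adjusted p 0.0300 and 0.0131). They were also called without CD63 high replicate 2 (-1.49 and -2.51) and without CD63 low replicate 1 (-0.997 and -2.60). Leaving out 1 library gave -1.49 to -0.60 for Trpm5 and -2.60 to -1.31 for Trpm2, and the library that then stood alone was assumed to vary like those of the other group. The cause of these differences was not tested.

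The count of called genes, 369, became 67 with library size as the only scaling, 940 without a filter, 686 with DESeq2, 616 with the replicate block and 450 to 769 without 1 library, the highest without CD63 low replicate 1. Rises were 331 of the 369, 690 without a filter and 534 with DESeq2. In the other TRP list, 1 gene rather than 0 was called without a filter and with DESeq2. In the pathway lists the 1 call became 0 with library size alone, 7 without a filter, 6 with DESeq2, 3 with the replicate block and 1 to 4 without 1 library. Single TRP genes turned direction without 1 library: Trpm3 to 0.22 and Mcoln1 to -0.061 without CD63 low replicate 1, and Mcoln3 to 0.34 without CD63 low replicate 2. Over the libraries left out their values ran from -0.61 to 0.22, -0.061 to 0.26 and -0.62 to 0.34. Gipr and Pip5k1c were also called without CD63 low replicate 1, and Camk1 without CD63 low replicate 2. The member ratios kept their sign in all 4 such settings.

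Replicate numbers were not shown to pair the libraries, since deviations from the group means of same-numbered libraries correlated at -0.107 over 13241 genes (Spearman -0.213). With 2 libraries a group, the crossed pairing has the same correlation with the opposite sign, so this value cannot decide whether either pairing is real. These are the numbers of the sample titles, whereas the deposited tables number the CD63 low libraries 2 and 3, so that replicate 2 there stands beside the CD63 low library titled 1. A crossed block, added after this was seen, called 942 genes, 1 other TRP gene and 6 pathway genes. The fold changes of Trpm5 and Trpm2 with the crossed block are not given here. The removal of marker genes of other cell types was also added after the data were seen. Trpm2 had 26 to 260 counts per library, and counting error alone would give its log2 fold change an SE of 0.20 against the fitted 0.56, so that the spread between libraries, more than depth, limited it.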
